A study of Mus musculus with 6 samples.

Results

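The genes described here encode the matrix metalloproteases (Mmp), the disintegrin metalloproteases (Adam), the secreted disintegrin metalloproteases with thrombospondin repeats (Adamts), their catalytically inactive relatives (Adamtsl) and the tissue inhibitors of metalloproteases (Timp). They were chosen by gene symbol, with Adamts3 left out, and number 67 of the 17714 genes in the table, in 19 Mmp, 4 Timp, 21 Adam, 18 Adamts and 5 Adamtsl genes. RNA from mouse hearts, labelled as lymphatic endothelial cells of wild-type (WT) animals, was sequenced in 3 libraries after myocardial infarction (MI) and 3 libraries after a sham operation, all labelled day 3. The protocol text names both heart tissue and primary heart endothelial cells as the source, mentions culture in serum-containing medium, and gives neither a sorting step nor the number of animals behind each library. P-values therefore measure only the spread between these libraries, which may be technical.

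Mmps are zinc proteases that cut collagens, elastin and other matrix proteins, either secreted or held at the cell surface. They are made as inactive precursors, and the 4 Timps are small secreted proteins that bind and block their active site. Adam proteases are membrane proteins that release the outer part of cytokines, growth factor precursors and adhesion molecules, and Adamts enzymes act in the matrix on proteoglycans, procollagens and microfibrils. In the heart the balance of these proteases with Timps is known for its part in the breakdown and rebuilding of matrix after infarction.

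The MI libraries held 21154200 to 21689212 estimated counts, against 3206373 to 3591135 in the sham libraries, so that depth was 6.29 times higher in MI and followed the group. Replicates differed beyond counting noise, with chi-square values per gene from 4.28 to 37.3 among MI and from 1.55 to 1.79 among sham, and MI 1 stood farthest from its group. These values rise with depth, so those of MI and sham are not on the same scale. The labelled cell type was checked against marker lists. Prox1, the transcription factor that defines lymphatic endothelium, averaged 1.26 ± 0.456 CPM (counts scaled to the size of the library) in MI and 7.12 ± 0.548 CPM in sham (SD, n = 3 each), and 6 of 7 lymphatic markers were lower in MI, while Pdpn, which other cell types also make, was higher. The summed lymphatic markers stood at 251.7 to 262.4 CPM in MI and 387.5 to 401.8 CPM in sham. All 10 pan-endothelial markers were lower in MI, at a summed 1932 to 2039 CPM against 8313 to 8448 CPM in sham. All 10 macrophage and monocyte markers were higher, at 18230 to 20770 CPM in MI against 4092 to 4306 CPM in sham. Of 11 neutrophil markers 8 were tested and 6 were higher, at 611.3 to 776.6 CPM in MI against 39.0 to 47.5 CPM in sham, where Ngp and Elane were at 0. Fibroblast markers, 3 higher and 7 lower of 10, summed to 2377 to 2505 CPM in MI and 2788 to 2864 CPM in sham. Mural markers (8 of 8 lower) summed to 846.6 to 852.4 CPM in MI and 3099 to 3134 CPM in sham, and cardiomyocyte markers (8 of 8 lower) to 112.7 to 130.1 CPM in MI and 2310 to 2370 CPM in sham. These levels moved with the results given below, and their part in them was not tested. In such bulk libraries, fewer cells of a type and less RNA per cell cannot be told apart.

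Proteases and inhibitors both changed in both directions. Of the 67 genes, 50 passed the filter on low counts. Of these 50, 16 were higher in MI and 25 were lower at an adjusted p below 0.05 (quasi-likelihood test of edgeR, Benjamini-Hochberg adjustment over all genes), and 9 did not pass. Among all 13370 genes tested 73.3% passed, 36.4% higher and 36.9% lower, beside 32% higher and 50% lower among the proteases and inhibitors tested. A fitted change of at least 2-fold was called for 15 as higher and 20 as lower, that is 30% and 40% of the 50, beside 20.2% higher and 21.2% lower among all genes. The 3 MI and 3 sham values did not overlap for 41 of the 50 genes (82%), beside 76.1% of all genes. A gene can pass the filter through 1 group alone, so these shares are a description only. The median log2 fold change, MI minus sham, was -0.51 over the 50 and -0.01 over all genes. Of the Mmps, 7 of 15 tested were higher and 6 lower, and the Timps were split with 2 higher and 2 lower of 4. The Adams had 5 higher and 5 lower of 13, the Adamts genes 1 higher and 8 lower of 13, and the Adamtsl genes 1 higher and 4 lower of 5. The 17 genes left untested held at most 49 counts summed over the MI libraries and 9 over the sham libraries. They were Mmp1b, Mmp10, Mmp16 and Mmp24, with Adam1b, Adam2, Adam3, Adam4, Adam5, Adam21, Adam28, Adam32, Adamts13, Adamts16, Adamts18, Adamts19 and Adamts20.

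**Figure D1:**
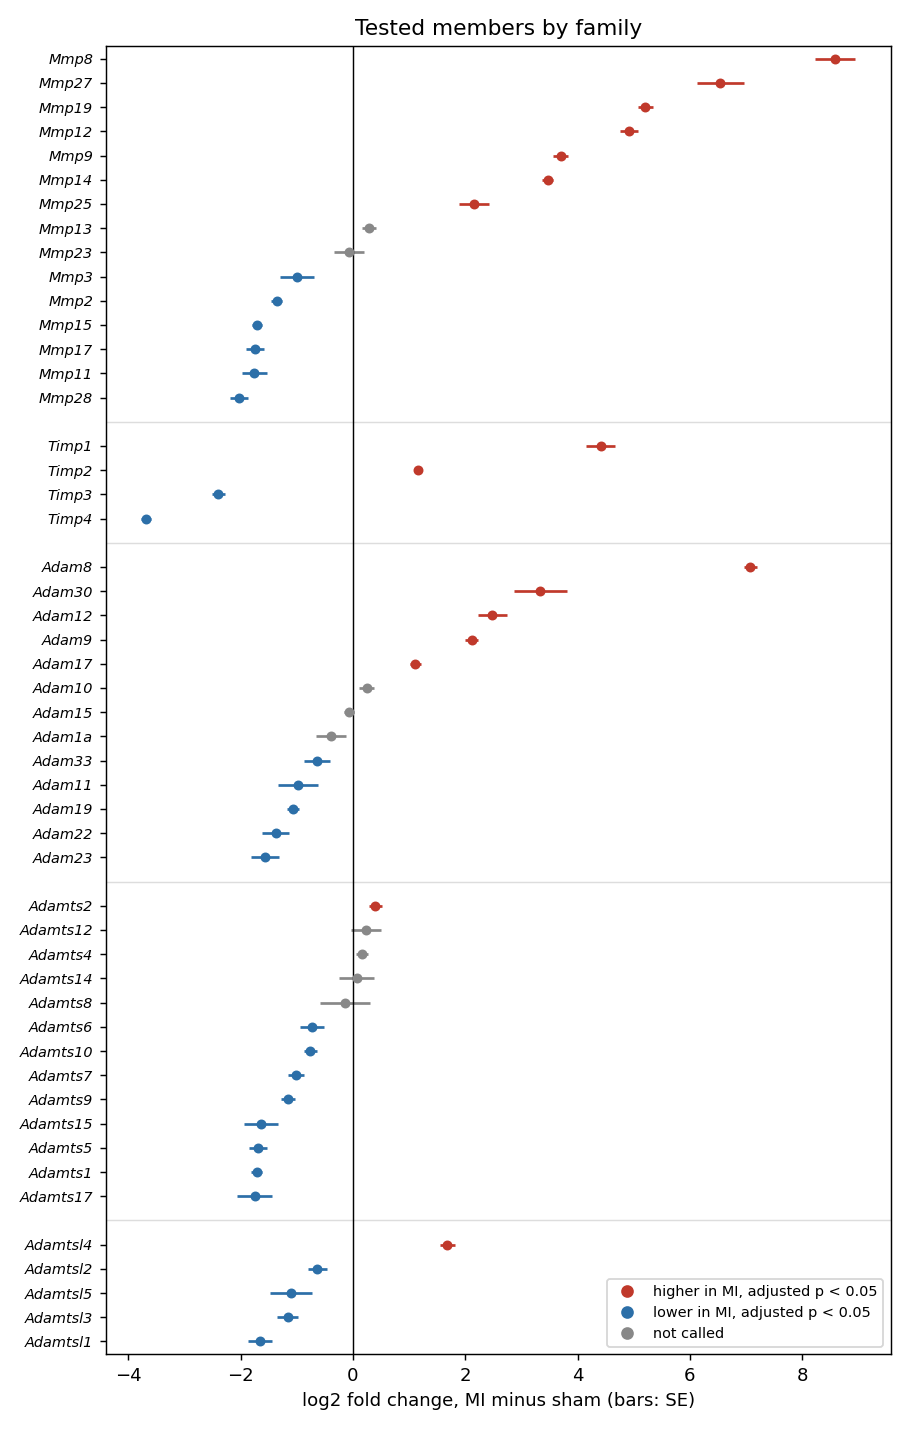
Fitted log2 fold changes (horizontal axis, MI minus sham, points with bars of 1 SE) of the 50 tested genes, ordered by change within each family down the page. Red points were called higher in MI (16), blue points lower (25) and grey points were not called (9). The Mmps run from 8.58 for Mmp8 to -2.03 for Mmp28, while most Adamts and Adamtsl genes lie left of 0.

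A stretch of chromosome 9 holds 7 of the 19 Mmp genes, Mmp13, Mmp12, Mmp1b, Mmp3, Mmp10, Mmp8 and Mmp27, within 309.4 kb (9:7272514-7581885, GRCm38.p6). Mmp1a, inside this stretch, and Mmp20 and Mmp7, just beyond it, were not among the 17714 genes measured. The promoters of 5 of the 7 genes carry the 7-base site bound by the AP-1 transcription factors, TGAGTCA or its reverse complement TGACTCA, between 250 bases before and 50 bases after a RefSeq transcription start. The 100 bases before each start are shown because these neighbours share the site and yet gave different values between the groups. Each sequence is from RefSeq on GRCm38.p6, reads 5′ to 3′ on the strand of the gene and ends at the base before the start, and capitals mark the site. The positions are chr9:7272414-7272513 (plus strand) for Mmp13, chr9:7347274-7347373 (plus) for Mmp12, chr9:7388027-7388126 (minus) for Mmp1b, chr9:7445722-7445821 (plus) for Mmp3 and chr9:7502242-7502341 (plus) for Mmp10.
Mmp13: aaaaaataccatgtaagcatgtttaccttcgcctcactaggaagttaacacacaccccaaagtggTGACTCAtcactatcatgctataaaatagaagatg
Mmp12: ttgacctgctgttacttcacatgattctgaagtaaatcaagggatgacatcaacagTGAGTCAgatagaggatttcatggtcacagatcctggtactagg
Mmp1b: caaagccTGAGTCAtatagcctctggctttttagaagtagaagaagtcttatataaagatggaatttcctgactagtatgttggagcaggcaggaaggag
Mmp3: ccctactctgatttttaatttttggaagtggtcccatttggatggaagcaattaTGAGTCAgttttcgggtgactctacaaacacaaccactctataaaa
Mmp10: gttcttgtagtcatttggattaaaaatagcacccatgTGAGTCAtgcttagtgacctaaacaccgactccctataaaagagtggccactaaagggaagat
The site began at position -35 for Mmp13, -44 for Mmp12 at 1 of its RefSeq starts, -93 for Mmp1b, -46 for Mmp3 and -63 for Mmp10. Among the 41 proteases and inhibitors with a RefSeq promoter, 7 held the site on either strand (17.1%), Adam19 and Adam1b being the others, beside 5.95% of 27025 genes. The 5 in the cluster are neighbours and not separate observations. No site was found for Mmp8 or Mmp27, but not all 67 genes had a promoter sequence, so its absence there is not shown. A match to these letters is a description and not a measured binding site.

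The 7 clustered genes ranged from a large rise to a fall. Mmp8, the collagenase stored in neutrophil granules, had 39.0, 34.6 and 38.2 CPM in the MI libraries and 0.247, 0 and 0 CPM in the sham libraries. Only 1 read was counted in sham, so the ratio of MI to sham was 431 with a 95% counting interval of 77.3 to 17032. Mmp27 had 18.2, 15.9 and 17.4 CPM in MI and 0.495, 0 and 0 CPM in sham, where 2 reads gave a ratio of 99.1 (95% counting interval 27.4 to 820). Both genes were present in all 3 MI libraries and close to the limit of counting in sham, and both were called higher (edgeR quasi-likelihood, adjusted p = 8.26e-10 for Mmp8 and 4.08e-08 for Mmp27). Mmp12, the macrophage elastase, had 206, 184 and 185 CPM in MI and 4.45, 7.96 and 6.63 CPM in sham. All MI values were far above all sham values, and the fitted change was 30.2-fold higher in MI (log2 4.92 ± 0.15 SE, edgeR adjusted p = 1.05e-10).

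Mmp13, the main interstitial collagenase of rodents, was already present in sham and did not pass the test. It had 113, 82.7 and 84.6 CPM in MI and 74.7, 75.0 and 79.5 CPM in sham. All MI values were above all sham values, with MI 1 apart from the other MI libraries, and the log2 fold change was 0.29 ± 0.13 SE (edgeR adjusted p = 0.0541). It passed in the same edgeR test without MI 1 (0.16, adjusted p = 0.0482), without MI 2 (0.37, 0.0116) or without MI 3 (0.36, 0.0393), and scaled to total counts it was -0.06 with 0.692. With all libraries it also passed in edgeR with RLE scaling (0.33, adjusted p = 0.0295) or no filter (0.35, 0.0292), and in DESeq2 (0.33, 0.0275). It did not pass in edgeR without sham 1, sham 2 or sham 3 (adjusted p = 0.137, 0.135 and 0.0858). Mmp3, stromelysin-1, which cuts proteoglycans and activates other Mmps, had 2.33, 2.33 and 2.54 CPM in MI and 6.43, 5.39 and 2.49 CPM in sham. Here the groups overlapped, since sham 3 lay within the MI range. Mmp3 was called 2.00-fold lower (log2 -1.003 ± 0.30 SE, edgeR adjusted p = 0.01), and the call was lost without sham 1 (-0.72, adjusted p = 0.0965) or without sham 2 (-0.91, adjusted p = 0.0533). Mmp1b, a rodent counterpart of human collagenase 1, and Mmp10, stromelysin-2, were not tested. They held 49 and 41 counts over the MI libraries and none over the sham libraries, which puts Mmp1b at least 3.31-fold and Mmp10 at least 2.77-fold higher in MI against a floor of 3 counts over the sham group. Mmp1b overlaps Mmp12 on the other strand, which was assigned 10902.3 counts in MI and 72.9 in sham, and with no strand setting given the Mmp1b counts cannot be told apart from reads of Mmp12. Among the genes beside the cluster, Dcun1d5 was not called (log2 0.11), Tmem123 and Birc2 were lower (-0.35 and -0.48) and Birc3, an inhibitor of apoptosis, was higher (1.37) by the same edgeR test.

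The gelatinases, which cut denatured collagen and basement membrane collagen, moved in opposite directions. Mmp9, on chromosome 2, had 100.4, 115 and 114 CPM in MI and 9.40, 8.99 and 6.90 CPM in sham, 12.99-fold higher in MI (log2 3.70 ± 0.14 SE, edgeR adjusted p = 3.43e-10). Mmp2, on chromosome 8, had 28.9, 31.6 and 32.3 CPM in MI and 78.0, 81.9 and 77.9 CPM in sham. It was 2.56-fold lower in MI (log2 -1.36 ± 0.10 SE, edgeR adjusted p = 9.47e-08). For neither gene did the groups overlap, and in mean TPM, a unit that divides by gene length, Mmp9 stood at 59.4 and Mmp2 at 17.3 in MI, against 5.09 and 49.4 in sham.

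The membrane-type Mmps also divided, 2 higher and 2 lower of 4 tested. Mmp14, a surface collagenase that activates the Mmp2 precursor, had 431, 499.6 and 483 CPM in MI and 43.3, 41.3 and 43.1 CPM in sham. It was 11.1-fold higher (log2 3.47 ± 0.09 SE, edgeR adjusted p = 4.68e-11), and all 3 MI values were about equally far above the narrow sham range. Mmp25, a form held by a lipid anchor and known from leukocytes, had 7.43, 7.84 and 6.80 CPM in MI and 1.98, 1.80 and 1.10 CPM in sham, 4.45-fold higher (adjusted p = 1.3e-05, edgeR). Mmp15, a transmembrane form, had 38.5, 43.4 and 42.1 CPM in MI and 134, 133 and 136 CPM in sham, 3.25-fold lower (log2 -1.70 ± 0.09 SE, edgeR adjusted p = 6.58e-09). Mmp17, also held by a lipid anchor, had 3.87, 4.08 and 3.84 CPM in MI and 13.1, 13.9 and 12.7 CPM in sham, 3.36-fold lower (edgeR adjusted p = 1.1e-06). None of these 4 genes had overlapping groups.

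Of the other Mmps, Mmp19, which cuts basement membrane proteins, had the largest fitted change among Mmps with more than 3 counts in each group. It had 139.7, 134 and 139 CPM in MI and 3.96, 3.60 and 3.59 CPM in sham, 36.9-fold higher (log2 5.21 ± 0.13 SE, edgeR adjusted p = 2.9e-11). The 3 MI libraries gave nearly the same value. Mmp28, a secreted Mmp of epithelia and macrophages also called epilysin, had 4.46, 4.66 and 5.45 CPM in MI and 19.8, 18.5 and 21.3 CPM in sham, 4.08-fold lower (edgeR adjusted p = 1.79e-07). Mmp11, stromelysin-3, had 1.86, 2.01 and 2.54 CPM in MI and 7.42, 7.19 and 7.18 CPM in sham, 3.39-fold lower (edgeR adjusted p = 1.88e-05). Both were lower in every MI library than in any sham library. Mmp23, a membrane form without the usual hemopexin domain, did not pass, with 3.93, 5.88 and 4.05 CPM in MI and 4.45, 5.91 and 4.14 CPM in sham (log2 -0.07 ± 0.26 SE, edgeR adjusted p = 0.821). Its groups overlapped almost fully.

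The 4 inhibitors changed in opposite directions, and the order of their levels was different in the groups. Timp1 (X:20870166-20874737, GRCm38.p6), an inducible inhibitor that blocks most secreted Mmps and Adam10, had 35.8, 47.8 and 44.1 CPM in MI and 1.24, 1.54 and 3.31 CPM in sham. It was 21.2-fold higher in MI (log2 4.41 ± 0.26 SE, edgeR adjusted p = 1.49e-08), and the sham values, which rest on 23 counts in all, varied more in proportion than the MI values. Timp2 (11:118301061-118355411), which blocks Mmp14 and is also needed for Mmp14 to activate the Mmp2 precursor, had 444, 473 and 461 CPM in MI and 211, 204 and 202 CPM in sham. It was 2.23-fold higher (log2 1.16 ± 0.07 SE, edgeR adjusted p = 3.58e-08), with a narrow range in both groups.

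Timp3 (10:86300412-86349505), which binds to the matrix and also blocks Adam17 and the aggrecan-cutting Adamts enzymes, had 277, 209 and 207 CPM in MI and 1213, 1252 and 1184 CPM in sham. It was 5.26-fold lower (log2 -2.40 ± 0.11 SE, edgeR adjusted p = 2.3e-09), with MI 1 above the other MI libraries and every MI value far below sham. Without MI 1 the log2 fold change was -2.52. Timp4 (6:115244444-115252205), the inhibitor known for its high level in heart and vessels, had 34.2, 36.3 and 35.0 CPM in MI and 457, 458 and 439 CPM in sham. It was 12.8-fold lower (log2 -3.68 ± 0.08 SE, edgeR adjusted p = 1.39e-11), and the groups were tight and far apart.

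Timp1, Timp3 and Timp4 each overlap a synapsin gene on the other strand (Syn1, Syn3 and Syn2), and no strand setting was given, so reads of such pairs may not be told apart. Over the MI libraries Syn1 was assigned 342.7 counts beside 2427 for Timp1, and over the sham libraries 2.0 beside 23. Syn3 was assigned 57.3 beside 13159 for Timp3 in MI and 6.5 beside 14062 in sham, and Syn2 169.9 beside 2004 for Timp4 in MI and 200.9 beside 5224 in sham. In all of these the Timp held most of the counts. The related AP-1 letters TGAGTAA or their reverse complement were found in 1 of the 41 members with a promoter, in the same window. This share of 2.44% was near the 3.09% of all genes. The member was Timp1, where the letters began at position +27. The 27 bases around the match are shown because Timp1 is the inhibitor with the largest rise (chrX:20870182-20870208, plus strand, GRCm38.p6, RefSeq, 5′ to 3′, capitals mark the match).
Timp1: ggtgggtggaTGAGTAAtgcgtccagg

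**Figure D2:**
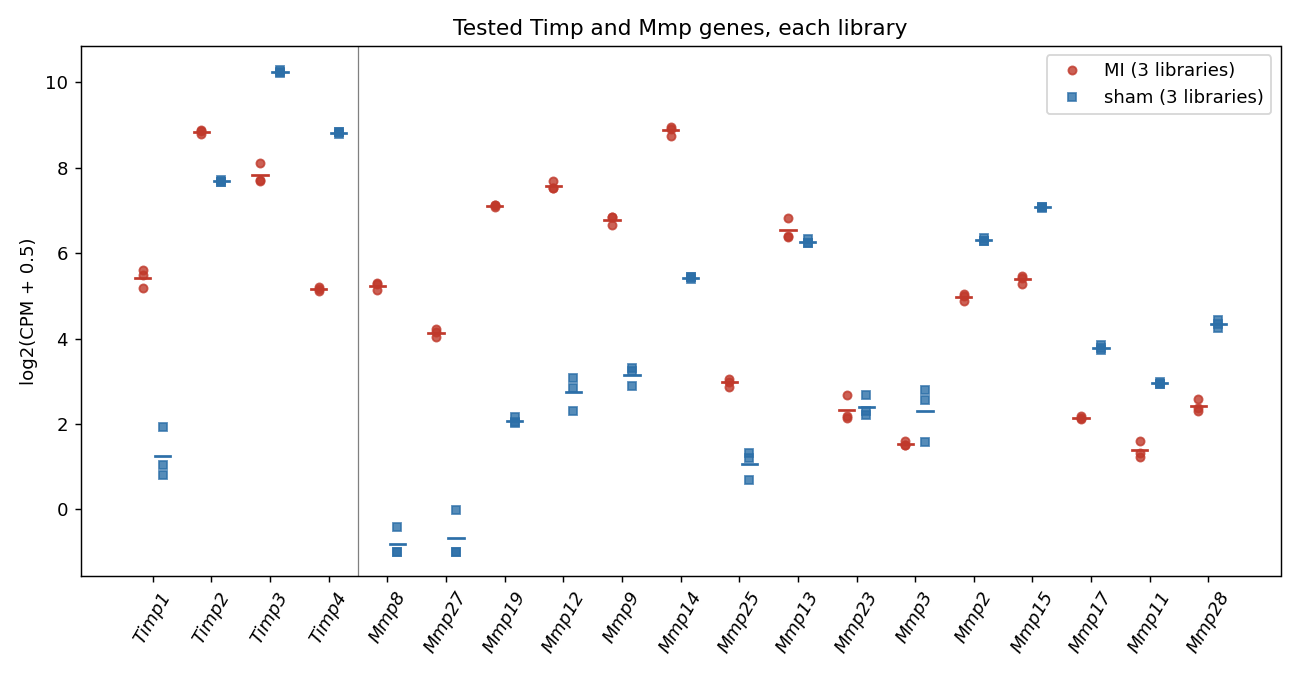
Levels of the 4 Timp and 15 tested Mmp genes in each library, as log2(CPM + 0.5) on the vertical axis, with MI libraries as red circles and sham libraries as blue squares and a line at each mean of 3. Timp1 and Timp2 lie higher in MI and Timp3 and Timp4 lower. The Mmps run from those with the largest fitted rise on the left to the largest fall on the right, and Mmp23 and Mmp3 are those whose groups overlap.

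Levels of different genes were compared in TPM. The authors' TPM are relative to each library's total. The median log2 fold change of all genes was -0.36 when counts were scaled to the total, against -0.01 with TMM scaling, so a sum of equal TPM in both groups corresponds to a value about that much above the middle of all genes. The summed Timp level averaged 411 ± 19.9 TPM in MI and 903.8 ± 22.8 TPM in sham (SD, n = 3 each). Timp2 made up 52.9% of it in MI and 12.02% in sham, Timp1 21.6% in MI and 0.516% in sham, Timp3 20.5% in MI and 54.8% in sham, and Timp4 4.995% in MI and 32.6% in sham. Timp2 therefore led in every MI library and Timp3 in every sham library. In MI the order of mean levels was Timp2 at 217 TPM, Timp1 at 88.4, Timp3 at 84.9 and Timp4 at 20.5, where Timp1 and Timp3 changed places between libraries. In sham it was Timp3 at 496, Timp4 at 295, Timp2 at 109 and Timp1 at 4.63 TPM, in the same order in all 3 libraries.

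The summed Mmp level averaged 666.8 ± 42.4 TPM in MI and 234.9 ± 3.93 TPM in sham (SD, n = 3 each). In MI the largest shares were those of Mmp14 (31.9%) and Mmp12 (25.8%), followed by Mmp19 (10.6%), Mmp13 (9.02%) and Mmp9 (8.93%). In sham the largest were Mmp15 (25.3%), Mmp13 (23.4%) and Mmp2 (21.0%), with Mmp14 at 9.12%. Mmp15 and Mmp2 took 2.45% and 2.59% of the Mmp sum in MI. The leading Mmps thus differed between groups. Mmp13 was above Mmp9 in MI 1 (10.9% and 8.12%) and below it in MI 2 (7.98% and 9.37%) and MI 3 (8.19% and 9.30%), so their order in MI is not set.

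**Figure D3:**
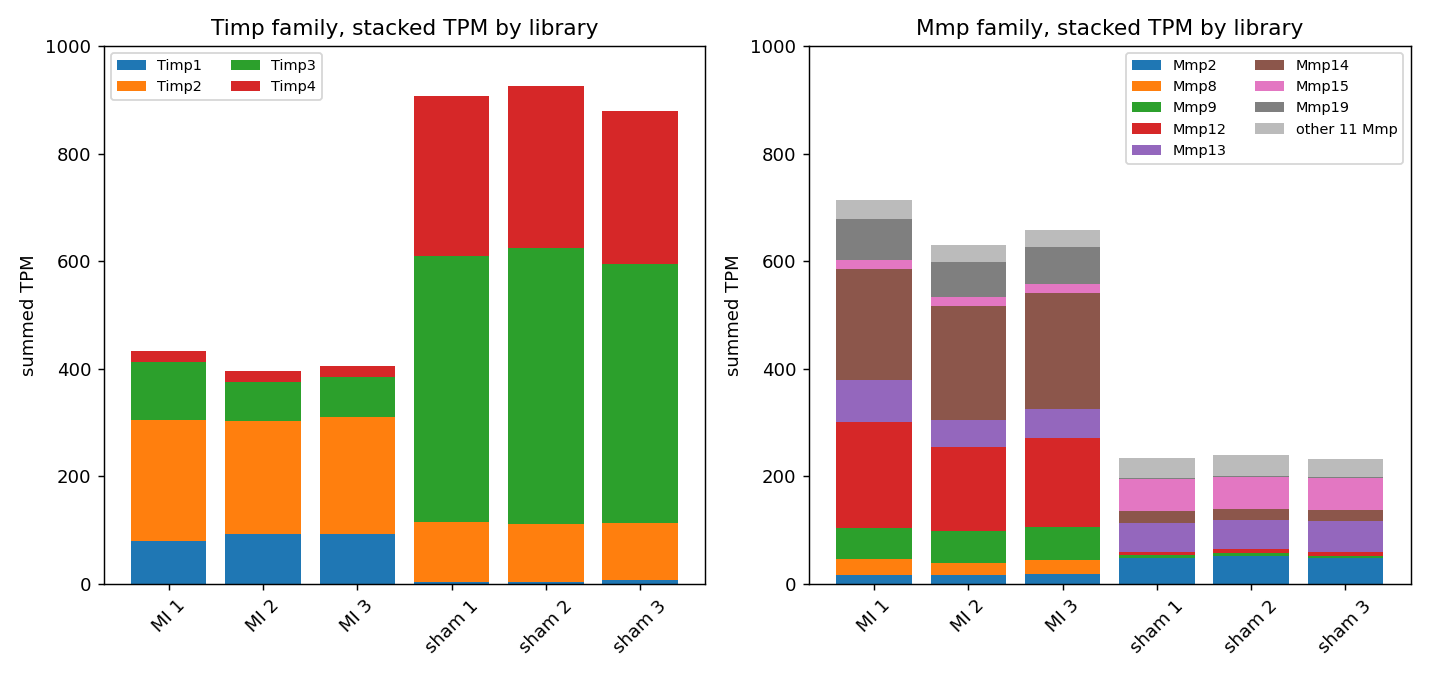
Stacked TPM of the Timp genes and of the Mmp genes in each of the 3 MI and 3 sham libraries, with the vertical axis from 0 in summed TPM and 1 colour per gene, the smaller Mmps pooled in grey. The Timp stacks are lower in MI (mean 411 TPM) than in sham (903.8 TPM), and the Mmp stacks are higher in MI (666.8 TPM) than in sham (234.9 TPM).

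The level of proteases relative to inhibitors was set within each library, where scaling between libraries plays no part. For each 100 TPM of Timp transcripts there were 164.5, 159.1 and 162.9 TPM of Mmp transcripts in the MI libraries, against 25.8, 25.9 and 26.3 TPM in the sham libraries. The means were 162.2 ± 2.74 in MI and 26.0 ± 0.28 in sham (SD, n = 3 each), with no overlap. With Mmp, Adam and Adamts transcripts summed, the figures were 446.0 ± 9.81 TPM per 100 TPM of Timp in MI and 112.1 ± 2.07 in sham. That sum holds Adams without a working catalytic site, Adam22 and Adam23 among them. It also holds Adam8, which was 45.8% of the Adam TPM in MI and 0.845% in sham. Which of the summed members the Timps block was not considered, so the sum is not a balance of enzymes with their own inhibitors. All these figures are transcript levels and do not measure protein or enzyme activity.

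Of 8 pairs of a protease and a Timp known to bind it, 7 had log2 ratios that did not overlap between the groups. For single genes, the CPM did not overlap in 76.1% of all genes tested, and pairs that share a Timp are not separate observations. With 3 against 3 libraries an exact two-sided permutation p cannot fall below 0.1, so no pair could pass 0.05. Mmp14 relative to Timp2 had a log2 ratio of -0.04 ± 0.07 in MI and -2.32 ± 0.04 in sham (SD, n = 3 each, 4.86 times higher in MI, exact permutation p = 0.1, adjusted over the 8 pairs 0.114). Mmp2 relative to Timp2 went the other way, with -3.62 ± 0.05 in MI and -1.13 ± 0.06 in sham. Both pairs share Timp2, so their opposite course is that of Mmp14 and Mmp2 themselves.

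Adam17 relative to Timp3 had a log2 ratio of 0.37, 0.50 and 0.58 in the MI libraries and -3.09, -3.002 and -2.95 in the sham libraries. This was 11.3 times higher in MI, so that Adam17 exceeded Timp3 in every MI library and stood below it in every sham library. Adamts4 and Adamts5, known as aggrecanases, were 5.91 and 1.92 times higher relative to Timp3 in MI. Timp3 itself was 5.26-fold lower, while Adamts4 was not called and Adamts5 was 3.21-fold lower. Relative to Timp1, Adam10 was 17.7 times lower in MI (-0.20 ± 0.50 in MI, 3.95 ± 0.61 in sham) and Mmp3 was 34.3 times lower (-4.98 ± 0.18 in MI, 0.12 ± 1.29 in sham). Timp1 itself was 21.2-fold higher, while Adam10 was not called and Mmp3 was 2.00-fold lower. The sham ratios of Mmp3 were 1.17, 0.52 and -1.32, and without sham 3 the difference was 56.7 times. Each of these pairs had the same exact permutation p of 0.1, the smallest possible, adjusted 0.114. Mmp9 relative to Timp1 was the exception, with -0.57 ± 0.09 in MI and 0.21 ± 0.85 in sham, where the groups overlapped (exact permutation p = 0.4, adjusted 0.4). Both Mmp9 and Timp1 were higher in MI, and Timp1 had 23 counts in all over the sham libraries.

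**Figure D4:**
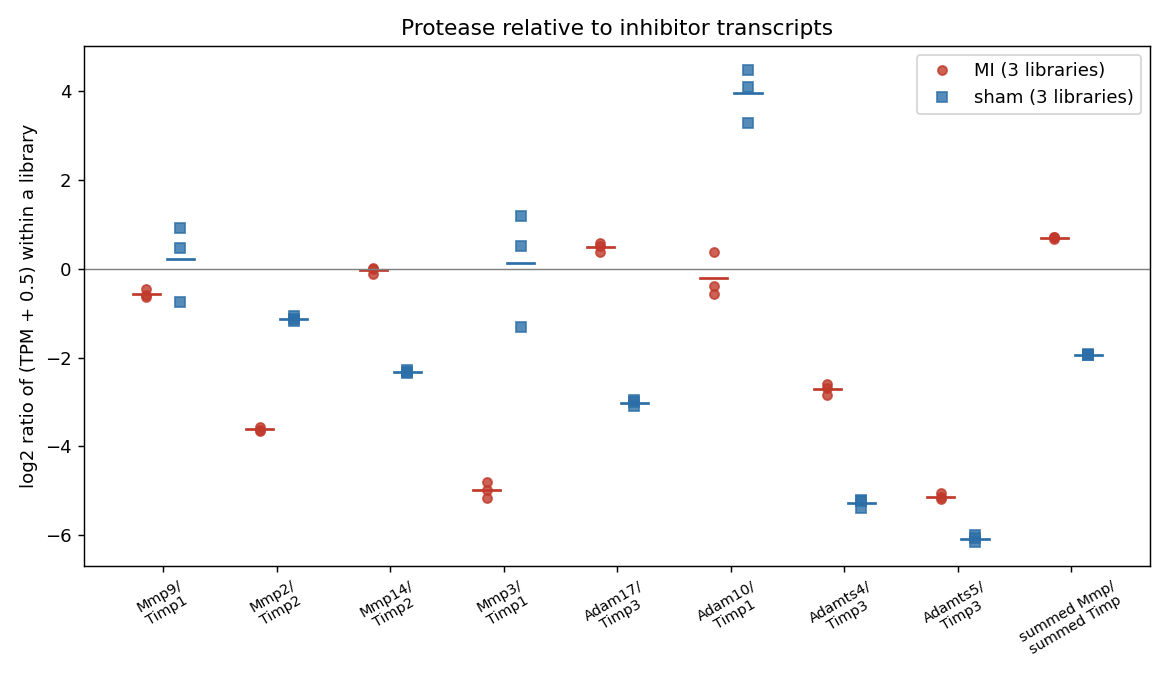
Log2 ratio of (TPM + 0.5) of a protease to that of a Timp within each library (vertical axis), with MI libraries as red circles, sham libraries as blue squares, a line at each mean of 3 and a grey line at equal levels. Mmp14/Timp2, Adam17/Timp3, Adamts4/Timp3, Adamts5/Timp3 and the summed Mmp/Timp are higher in MI, Mmp2/Timp2, Mmp3/Timp1 and Adam10/Timp1 are lower, and Mmp9/Timp1 overlaps.

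Among the Adam genes, Adam8, a membrane protease known from leukocytes, had the largest fitted change. It lies at 7:139978932-139995207 (GRCm38.p6) and had 808, 914 and 903 CPM in MI and 6.43, 6.16 and 6.90 CPM in sham. All MI values were more than 100 times those in sham, and the fitted change was 135-fold higher (log2 7.07 ± 0.12 SE, edgeR adjusted p = 4.48e-12). Adam8 made up 45.8% of the summed Adam TPM in MI and 0.845% in sham. That sum averaged 1052 ± 65.5 TPM in MI and 463.9 ± 9.35 TPM in sham (SD, n = 3 each), and its leading gene in sham was Adam15 with 56.7%, against 20.7% in MI.

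Adam17, the main sheddase of tumour necrosis factor, had 326, 266 and 279 CPM in MI and 128, 139 and 137 CPM in sham. It was 2.16-fold higher (log2 1.11 ± 0.09 SE, edgeR adjusted p = 5.31e-07). Adam9, a widely made membrane protease, had 387, 291 and 314 CPM in MI and 81.9, 75.8 and 71.5 CPM in sham, 4.32-fold higher (log2 2.11 ± 0.12 SE, edgeR adjusted p = 1.04e-08). For both genes MI 1 was the highest library, and every MI value was above every sham value. Without MI 1 the log2 fold change of Adam9 was 2.01. Adam12, a protease made in muscle, fibroblasts and placenta, had 11.6, 8.90 and 10.1 CPM in MI and 1.73, 2.31 and 1.38 CPM in sham, 5.58-fold higher (edgeR adjusted p = 3.21e-06). Adam30, known from testis, had 2.97, 2.65 and 2.54 CPM in MI and 0.247, 0.257 and 0.276 CPM in sham, a single count in each sham library, so that the ratio was 10.5 with a 95% counting interval of 3.52 to 51.3.

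Adam10, the sheddase of Notch receptors and VE-cadherin, and Adam15, an abundant endothelial member, did not pass the test. Adam10 had 262, 175 and 193 CPM in MI and 175, 175 and 183 CPM in sham, with overlapping groups and MI 1 above the rest (log2 0.24 ± 0.13 SE, edgeR adjusted p = 0.113). Without MI 1 it was 0.08 (adjusted p = 0.25), without MI 2 it was called higher (0.35, adjusted p = 0.00802), and scaled to total counts it turned to -0.11 (adjusted p = 0.483). Adam15 had 332, 398 and 397 CPM in MI and 415, 387 and 384 CPM in sham, again overlapping (log2 -0.07 ± 0.09 SE, edgeR adjusted p = 0.47). It was 0.03 without MI 1, and lower in MI with an adjusted p of 0.000786 when scaled to total counts (-0.42). For both genes the direction therefore hung on MI 1 or on the scaling, and a p above the threshold does not show that the levels were alike.

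The Adam genes called lower had low or moderate levels. Adam19, a sheddase with a part in heart development, had 21.5, 19.6 and 18.9 CPM in MI and 39.1, 44.9 and 41.7 CPM in sham, 2.09-fold lower (edgeR adjusted p = 3.7e-06). Adam23 had 1.80, 2.01 and 1.61 CPM in MI and 5.69, 5.91 and 4.42 CPM in sham, 2.95-fold lower, and Adam22 had 2.17, 2.28 and 1.82 CPM in MI and 5.69, 5.91 and 4.69 CPM in sham, 2.60-fold lower (edgeR adjusted p = 0.000118 for Adam23 and 0.000245 for Adam22). Adam22 and Adam23 lack a working catalytic site and act as adhesion receptors, best known in neurons. None of these groups overlapped. Adam11 and Adam33 were called 1.96-fold and 1.55-fold lower at adjusted p of 0.0266 and 0.0253 in edgeR, and Adam1a was not called (log2 -0.39). Adam11 lost its call without sham 1, 2 or 3 (adjusted p = 0.128, 0.0691 and 0.0526) and did not pass the filter without an MI library, and Adam33 without MI 2, MI 3, sham 1 or sham 3 (adjusted p from 0.0609 to 0.0906). In this way 3 Adam genes in place of 5 were called lower with DESeq2, with MI thinned to the sham depth, and without MI 2, MI 3, sham 1 or sham 3. Scaled to total counts, 7 were called lower, Adam1a and Adam15 among them.

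Adamts genes were mostly lower. The summed Adamts level averaged 114.9 ± 15.7 TPM in MI and 313.9 ± 1.05 TPM in sham (SD, n = 3 each), and Adamts1, which cuts aggrecan and versican, held 52.8% of it in MI and 70.6% in sham. Adamts1 had 196, 157 and 167 CPM in MI and 571, 569 and 564 CPM in sham. All MI values lay far below the tight sham range, 3.28-fold lower (log2 -1.71 ± 0.09 SE, edgeR adjusted p = 8.14e-09). Of 7 Adamts genes known to cut proteoglycans, 6 were tested, and 4 were lower (66.7%, beside 36.9% of all genes) and none higher (beside 36.4%).

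Adamts9, which cuts versican, had 57.2, 40.0 and 46.3 CPM in MI and 106, 106 and 107 CPM in sham, 2.22-fold lower (edgeR adjusted p = 4.64e-06). Adamts5, an aggrecanase, had 9.44, 6.57 and 7.16 CPM in MI and 24.0, 26.2 and 24.3 CPM in sham, 3.21-fold lower (edgeR adjusted p = 1.52e-06). Both had MI 1 as the highest MI library and no overlap with sham. Adamts15 was the other lower proteoglycanase, at 1.25 ± 0.276 CPM in MI and 3.87 ± 0.796 CPM in sham (SD, n = 3 each). Adamts4, the other main aggrecanase, did not pass, with 50.3, 42.4 and 44.95 CPM in MI and 42.6, 39.0 and 41.1 CPM in sham and overlapping groups (log2 0.17 ± 0.11 SE, edgeR adjusted p = 0.184, turning to -0.18 when scaled to total counts).

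Adamts2, which trims the amino end of fibrillar procollagens, was the only Adamts gene called higher, with 28.0, 30.8 and 29.0 CPM in MI and 22.5, 22.3 and 21.5 CPM in sham. The groups did not overlap, but the change was 1.32-fold (log2 0.40 ± 0.11 SE, edgeR adjusted p = 0.00682) and it was lost when scaled to total counts (0.05, adjusted p = 0.689) and with limma on log2(TPM + 1) (0.21, adjusted p = 0.157). Its relative Adamts14 was not called (log2 0.07). Adamts10, a binder of fibrillin microfibrils, had 29.7, 37.3 and 33.9 CPM in MI and 55.2, 56.0 and 59.6 CPM in sham, 1.69-fold lower (edgeR adjusted p = 6.72e-05). Adamts17, its relative, had 0.743, 1.17 and 1.09 CPM in MI and 3.22, 3.60 and 3.31 CPM in sham, 3.35-fold lower (edgeR adjusted p = 0.000307). Adamts7 and Adamts6 were also lower (2.03-fold and 1.65-fold), while Adamts12 and Adamts8 were not called.

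The Adamtsl genes, which bind microfibrils but have no protease domain, kept about the same sum, 22.1 ± 0.945 TPM in MI and 21.0 ± 0.284 TPM in sham (SD, n = 3 each), with different members. Adamtsl4, a fibrillin binder, had 31.7, 36.3 and 35.8 CPM in MI and 11.9, 10.3 and 10.2 CPM in sham, 3.201-fold higher (log2 1.68 ± 0.13 SE, edgeR adjusted p = 3e-07). It made up 67.8% of the Adamtsl sum in MI and 25.1% in sham. Adamtsl1 had 3.87, 2.97 and 3.22 CPM in MI and 8.41, 12.1 and 11.3 CPM in sham, 3.15-fold lower (edgeR adjusted p = 1.71e-05). Adamtsl3 had 3.98, 3.71 and 4.41 CPM in MI and 8.17, 9.25 and 9.66 CPM in sham, 2.23-fold lower (edgeR adjusted p = 0.000131). Adamtsl5, with 1.38, 3.34 and 1.56 CPM in MI and 4.70, 4.62 and 4.14 CPM in sham, was 2.15-fold lower (edgeR adjusted p = 0.0185), and Adamtsl2 1.55-fold lower. The call of Adamtsl5 was lost without sham 1 (log2 -1.06, adjusted p = 0.0721) or sham 2 (-1.08, adjusted p = 0.0648). In all 5 genes the groups did not overlap.

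A list of 18 genes that activate, carry, hold or clear these enzymes had 16 tested, of which 5 were higher (31.2%) and 10 lower (62.5%), beside 36.4% higher and 36.9% lower among all genes. Scaled to total counts, 3 were higher. Furin, the convertase that cuts the precursors of Mmp14 and the Adams, had 500.3, 556 and 529 CPM in MI and 72.0, 71.1 and 71.8 CPM in sham, 7.37-fold higher (edgeR adjusted p = 6.34e-11). Lrp1, the receptor that clears Mmps and Timps from outside the cell, was 11.3-fold higher, at 1221 ± 20.7 CPM in MI and 108 ± 10.7 CPM in sham (SD, n = 3 each). Of the other convertases, Pcsk5 and Pcsk6 were 3.39-fold and 3.37-fold lower. Reck, a membrane-bound Mmp inhibitor, had 2.65, 3.60 and 3.01 CPM in MI and 11.4, 12.6 and 11.3 CPM in sham, 3.80-fold lower (edgeR adjusted p = 2.03e-06).

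The partners that carry Adam17 and Adam10 to the surface differed as well. Rhbdf2 and Rhbdf1 are inactive rhomboid proteins that take Adam17 to the surface. Rhbdf2 had 134, 161 and 156 CPM in MI and 53.2, 55.0 and 55.2 CPM in sham, 2.76-fold higher, while Rhbdf1 had 12.6, 14.5 and 12.8 CPM in MI and 27.2, 28.5 and 34.0 CPM in sham, 2.25-fold lower (edgeR adjusted p = 6.22e-08 for Rhbdf2 and 6.32e-06 for Rhbdf1). Rhbdf1 was named after its values were seen. Frmd8, which steadies that complex, was 1.47-fold higher, a call that was lost when scaled to total counts (log2 0.21, edgeR adjusted p = 0.101). Of the 5 tested tetraspanins that carry Adam10, Tspan15 was 5.60-fold lower, at 13.4 ± 1.08 CPM in MI and 75.0 ± 1.98 CPM in sham (SD, n = 3 each). Tspan17 and Tspan5 were 2.01-fold and 1.35-fold lower, the call of Tspan5 being lost without sham 2 (log2 -0.33, adjusted p = 0.0912), and Tspan33 was not called. Tspan14, with 128 ± 4.46 CPM in MI and 112 ± 3.13 CPM in sham (SD, n = 3 each), had a log2 fold change of 0.20 (edgeR adjusted p = 0.0454), which lost its call without MI 2 (0.17), MI 3 (0.19), sham 1 (0.22), sham 2 (0.18) or sham 3 (0.21) and turned to -0.15 when scaled to total counts. These 4 tetraspanins were named after their values were seen.

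Of 20 proteins known to be released by Adam10 or Adam17, 11 had higher (55%) and 7 lower (35%) transcript levels, beside 36.4% higher and 36.9% lower among all genes, so the lower share was near that of all genes. Without MI 3, 4 were lower. Among the higher ones, Tnf, the inflammatory cytokine released by Adam17, had 781, 904 and 834 CPM in MI and 144, 151 and 150.2 CPM in sham, 5.66-fold higher (edgeR adjusted p = 1.66e-10). Its receptor Tnfrsf1b was 15.8-fold, the hyaluronan receptor Cd44 17.4-fold and the membrane chemokine Cxcl16 6.14-fold higher. Among the lower ones were the angiopoietin receptor Tek (5.58-fold), VE-cadherin Cdh5 (3.76-fold), the junction protein F11r (3.49-fold) and the membrane chemokine Cx3cl1 (2.32-fold). The remaining lower ones, named after their values were seen, were Tgfa (5.47-fold), the other Tnf receptor Tnfrsf1a (1.20-fold) and Notch1 (1.17-fold). Cdh5 and Csf1r of this list are also in the cell type marker lists above. Of the proteoglycans cut by Adamts enzymes, Vcan had 90.9, 57.9 and 61.4 CPM in MI and 18.8, 14.9 and 15.7 CPM in sham, 4.24-fold higher (edgeR adjusted p = 1.12e-06). Acan was 2.16-fold higher at 3.00 ± 0.115 CPM in MI and 1.38 ± 0.368 CPM in sham (SD, n = 3 each), and Ncan and Bcan were not tested. Without MI 1, MI 2 or MI 3, Acan did not pass the filter on low counts.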

How the data were processed

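RNA was sequenced in 6 libraries, 3 MI and 3 sham, which were grouped by their titles. The table deposited by the authors held estimated counts, made by them from reads mapped to the mouse genome and not scaled, and TPM computed by the authors for every library. A further 12 per-library columns (FPKM and scaled counts) and 8 averages were not used. The submitters' processing notes name GRCm38.p6 as the build, and Agilent Feature Extraction 9.1 with no role. Not given in the sources used here were aligner, counting program, annotation and strand setting.

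The counts were rounded before testing. With edgeR 4.0.16 (R 4.3.3), the steps were filterByExpr, which kept 13370 genes, TMM scaling and the quasi-likelihood test, with the group as the only term and Benjamini-Hochberg adjustment over all genes tested. Genes were called at an adjusted p below 0.05. CPM were computed on TMM-scaled library sizes, and log2 fold changes are MI minus sham. SEs were obtained by dividing the log2 fold change by the root of F. Depth limited sham, where 3 counts over the group equal 0.26 CPM. Counting intervals are exact, at 95%, and cover counting error only. Ratios used log2 of (TPM + 0.5) and exact two-sided permutation tests in SciPy 1.17.1.

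The genes, lists and pairs were chosen with earlier results of these data known. Values in every library are given for all Timps, all tested Mmps, and those other tested members with a mean of at least 20 CPM in either group or among the 3 largest called rises or falls of their family. For other lists up to 4 called genes in each direction with the smallest p are named, and genes named beyond this are marked or neighbour the chromosome 9 cluster. RefSeq identifiers matched 17576 of the 17714 genes and all 67 members, and 41 members had a promoter sequence. A planned search for protein motifs was not run, since no protein sequences were used here. Alternatives were DESeq2 1.42.0, RLE scaling, total-count scaling, dropping the filter, tightening it (to 1 CPM in every library of a group and 100 counts), the replicate number as a block, MI libraries thinned to the sham depth, limma-voom and limma with trend (limma 3.58.1) on log2(TPM + 1), and each library left out in turn. The procedure was also run on simulated data that had the same spread between replicates for every gene and in both groups. The real groups differed in that spread, so the simulation does not show how well the calls hold for these libraries.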

Additional observations from a re-analysis of the deposited data

How the results depend on the processing

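The calls of 36 of the 41 called genes held in each of 15 alternatives in which the gene was tested, and none of the 41 turned its direction. The exceptions were Adam11, Adam33, Adamts2, Adamtsl5 and Mmp3. All 9 uncalled genes changed side or sign in at least 1 alternative. Over all leave-one-out fits 16 to 18 members were called higher and 21 to 24 lower. Adam genes called lower numbered 3, in place of 5, with DESeq2, with the replicate block and with MI thinned to the sham depth, and 3 to 4 in the leave-one-out fits. Scaled to total counts they numbered 7, with Adam1a (-0.74, edgeR adjusted p = 0.0248) and Adam15 (-0.42, 0.000786) called lower. Adam15 was also called lower with limma on log2(TPM + 1) (-0.27, adjusted p = 0.00507). Adamts genes called higher numbered 0, in place of 1, when scaled to total counts and with limma on log2(TPM + 1). Mmp genes called higher numbered 10, in place of 7, with no filter on low counts, and 8 to 9 in the leave-one-out fits. Total-count scaling gave 3549 higher and 6628 lower calls over all genes, 34.9% higher in place of 49.6%, and 15 higher and 27 lower among the members.

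Among the members, the log2 fold changes that turned their sign were all of uncalled genes, and the cause was not tested. With total-count scaling they were Adam10 (-0.11), Adamts12 (-0.11), Adamts14 (-0.28), Adamts4 (-0.18) and Mmp13 (-0.058), and of the other lists Tspan14 (-0.15). With limma on log2(TPM + 1) Adamts4 was -0.00060, and with limma-voom Adamts8 was 0.031. In the leave-one-out fits, Adam15 ranged from -0.12 to 0.032 (without MI 1), Adamts12 from -0.0019 (without MI 1) to 0.38, Adamts14 from -0.17 (without sham 3) to 0.24, Mmp23 from -0.28 to 0.11 (without sham 2), and Adamts8 from -0.53 to 0.59 (without sham 2). Without sham 1, Mmp8 and Mmp27 had 0 counts in sham and fitted log2 fold changes of 11.91 and 10.79, which are no measure of size.

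No protease to Timp ratio turned its sign. MI and sham libraries share the numbers 1 to 3, but nothing in the labels pairs them, and the correlations of the deviations of same-numbered libraries were -0.0481, -0.0208 and 0.016. With the replicate block 16 members were higher and 23 lower, and Adam11 (adjusted p = 0.0507) and Adam33 (0.0501) lost their calls by edgeR. The low depth of sham limits the genes close to 0 there.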
